A study of Haliotis discus hannai with 24 samples.

Results

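The left and the right epipodial tentacle of the Pacific abalone Haliotis discus hannai were compared through 8 of the 24 libraries of the series, 4 labelled left and 4 labelled right, paired by the replicate number in their titles. The libraries were chosen by their tissue label alone, and all genes of the count table were considered. Polyadenylated RNA was sequenced from excised organs of animals recorded only as aquaculture stock, and the other 16 libraries came from eyestalks and cephalic tentacles of both sides. Every library carries the same batch value. The side is uncertain for the epipodial organ: where the tissue label says left, the title begins with the letter that eyestalk and cephalic titles use for right, and where it says right, with the letter for left. Where the tissue label says left, the treatment label moreover speaks of an excised cephalic tentacle. Left and right below therefore follow the tissue label, and every direction depends on it. The sources used here do not say whether a number stands for 1 animal or how many tentacles a library pools, so the p-values below reflect only how these libraries vary, which may be technical.

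Epipodial tentacles are slender, mobile outgrowths of the epipodium, the fold of tissue that surrounds the foot, and they carry sensory endings for touch and for chemicals in the water. They differ from the eyestalks and the cephalic tentacles, which sit on the head. Gastropods are asymmetric animals, since larval torsion and shell coiling act differently on their sides, and the study asked whether paired sensory organs also differ between sides in gene expression, with cAMP-PKA-CBP and TGF-β signalling as its stated interest. The files used here give an identifier for each gene and no name. Members of these pathways and markers of cell types could therefore not be looked up, the tissue label could not be checked against markers, and no role can be given for a gene named below.

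Of 19700 genes listed, 14972 had a count in at least 1 epipodial library, and the 5740 that passed a filter on low counts were tested. The 8 libraries were of similar depth, with total counts of 1782220 to 2146464 on the left and 1700095 to 1981178 on the right. Between 8876 and 10678 genes were detected in each. Left replicate 3 stood apart: it had the fewest detected genes, and its 50 most abundant genes held 57.6% of its counts, against 44.3% to 51.5% in the other 7 libraries. Its TMM factor, the scaling factor that edgeR derives from the bulk of genes, was 0.72, against 0.96 to 1.19 in the others.

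The tentacles of the 2 sides were very alike within a replicate number and much less alike between numbers, whatever the side. Spearman's rho of log2 CPM (the count relative to the library total, scaled with TMM factors) between left and right was 0.95 in number 1, 0.93 in number 2, 0.91 in number 3 and 0.94 in number 4. Libraries of the same side but other numbers had a rho of 0.72 to 0.81 over 12 combinations. Libraries of the other side and other numbers had nearly the same range, 0.71 to 0.81, also over 12 combinations. All 4 same-number pairs thus lay above all 24 other combinations, and leaving the side unmatched moved the likeness little. These are correlations across genes within pairs of libraries, and genes are not independent replicates.

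**Figure D1:**
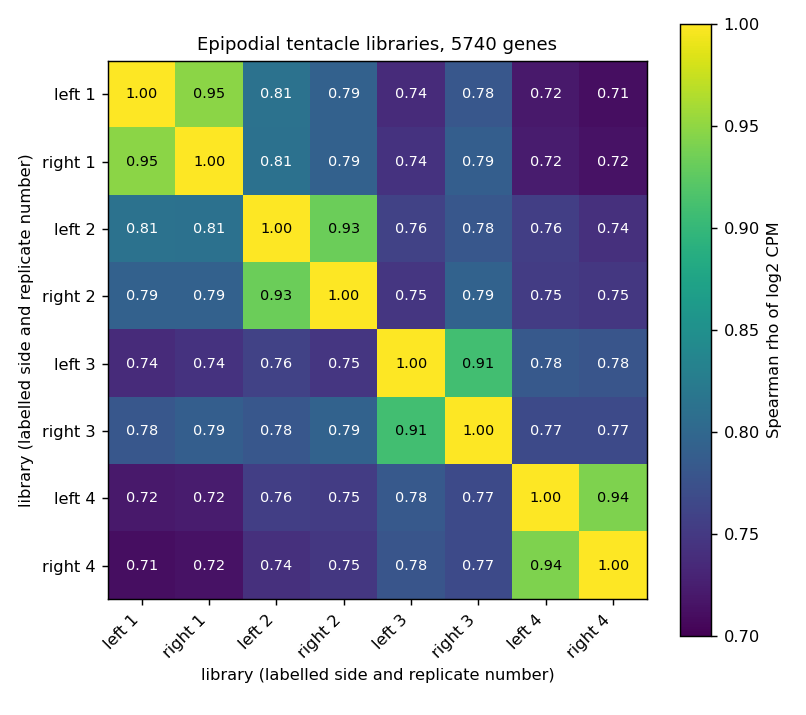
Heat map of Spearman's rho of log2 CPM over 5740 genes for each pair of the 8 epipodial libraries, with left and right of a number side by side on both axes. The 4 blocks of 0.91 to 0.95 along the diagonal are left and right of a number, and all other cells lie between 0.71 and 0.81.

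The sizes of the differences gave the same order. The median absolute log2 difference between left and right was 0.30 in number 1, 0.38 in number 2, 0.51 in number 3 and 0.33 in number 4, on the log2 CPM scale with a prior count of 2. Between libraries of the same side and other numbers it was 0.49 to 0.83, with a median of 0.67. Number 3 alone reached into that range. Left and right were within 2-fold of each other for 92.9%, 89.6%, 80.2% and 88.2% of genes in numbers 1 to 4, and for 57.7% to 77.4% of genes between numbers on the same side. Differences over 4-fold were seen for 21, 36, 188 and 99 genes in numbers 1 to 4, and for 430 to 795 genes between numbers on the same side.

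**Figure D2:**
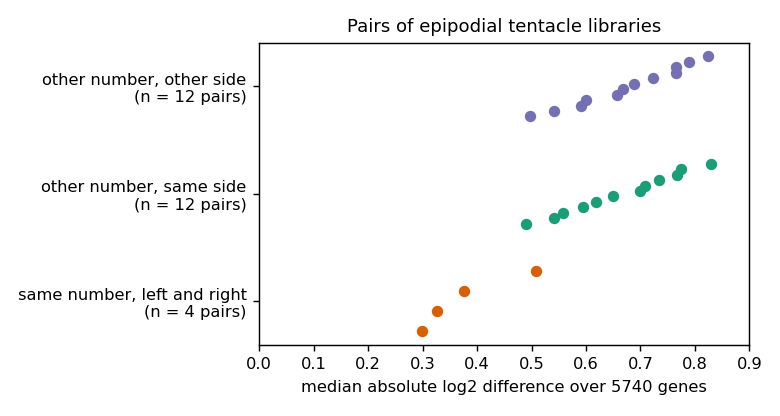
Median absolute log2 difference over 5740 genes (horizontal axis) for each pair of epipodial libraries, grouped by whether the pair shares its number or its side. Within a group, points are spread vertically in rising order for legibility. The 4 left-right pairs of a number lie at 0.30 to 0.51 and the 24 other pairs at 0.49 to 0.83.

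Most of the variation among the 8 libraries thus lay between numbers. Summed over the tested genes, 84.3% of the sum of squares of log2 CPM lay between numbers, 4.54% between the labelled sides and 11.1% in what neither accounted for. The mean square between numbers was larger than that between sides for 4752 genes (82.8%). The former has 3 degrees of freedom and the latter 1, so an even split is not the share expected without effects. At the median gene the mean square was 0.64 between numbers, 0.10 between sides and 0.12 in the residual. The side mean square has 1 degree of freedom and the residual has 3. Their medians therefore cannot show whether the sides differed by more or less than the residual. The summed share per degree of freedom was larger for the sides (4.54% on 1) than for the residual (11.1% on 3). The difference between these shares was not tested. The common biological coefficient of variation, edgeR's measure of the spread between libraries beyond counting, was 0.233 with the number as a block and 0.607 without it. In the same paired fit edgeR's quasi-likelihood F test of the 3 number terms called 2794 of 5740 genes (48.7%) after Benjamini-Hochberg adjustment, and 30.8% without replicate 4. The same fit called 1 gene between sides (0.0174% of those tested).

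The 2 genes of smallest p between numbers were nearly on or off, with the sides matching. Such a choice favours matching sides, since the test sets differences between numbers against left-right disagreement within a number. HDSC10268CG00020 (coding length 300 bases) had 69, 22100, 13762 and 0 counts in left replicates 1 to 4 and 60, 25691, 21855 and 0 counts in right replicates 1 to 4. It was abundant in numbers 2 and 3 and absent or nearly so in numbers 1 and 4, on both sides alike. Between sides its log2 fold change was -0.15 (95% interval -0.59 to 0.29). HDSC00814CG00050 (300 bases) had 14, 69, 8 and 3311 counts on the left and 13, 36, 8 and 3695 on the right, so it was high in number 4 only. Its log2 fold change between sides was 0.25 (95% interval -0.24 to 0.74). Both differed between numbers with an adjusted p of 2.82e-17 in edgeR's test. The level averaged over the sides differed by over 2-fold between the extreme numbers in 3633 genes (63.3%) and by over 16-fold in 310 (5.40%). The fitted left-right fold exceeded 2 for 110 genes (1.92%). These measures are unlike, since the first is a range over 4 numbers and the second an average over 4 pairs.

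The paired comparison of the sides bounded the difference for most genes of moderate or high level. At the median gene the fitted absolute log2 fold change was 0.23, and 90% of the fitted values lay between -0.66 and 0.59. The 95% interval stayed within 1.5-fold in either direction for 1075 genes (18.7%), within 2-fold for 3395 genes (59.1%) and within 4-fold for 5568 genes (97%). Without number 3 it stayed within 2-fold for 54.6%. How tight these bounds were depended on level. In the 1435 genes with the highest level (log2 CPM of 5.96 and over) the interval stayed within 2-fold for 95.5% of genes, with a median absolute log2 fold change of 0.17. In the next lower 1435 genes, and the 1435 below these, it did so for 84.5% and 51.6% of genes. In the 1435 with the lowest level (log2 CPM of 3.51 and under) it did so for 5.09%, with a median absolute log2 fold change of 0.33, so a 2-fold difference in one direction or the other lay within the interval for most genes of low level. Without the replicate block the interval stayed within 2-fold for 23.1% of genes.

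A single gene was called between sides. HDSC01860CG00060 (coding length 1251 bases, mean level 32.2 FPKM, the deposited value that corrects for coding length and library total) had 18, 43, 14 and 436 counts in left replicates 1 to 4. On the right it had 6, 4, 12 and 53 counts. Scaled, these were 7.48, 21.0, 9.26 and 258 CPM on the left and 2.58, 1.82, 6.60 and 32.1 CPM on the right. The left library was higher in 4 of 4 pairs, by 2.36-fold, 7.73-fold, 1.35-fold and 7.81-fold, but the groups overlapped, since right replicate 4 was above left replicates 1 to 3. The gene averaged 73.9 CPM ± 123 on the left and 10.8 CPM ± 14.4 on the right (SD, n = 4 each). Its log2 fold change in edgeR's paired fit was 2.33 (SE 0.38, adjusted p = 0.0399). It also differed between numbers (adjusted p = 1.21e-07), being highest in number 4 on both sides. The call rested on replicates 2 and 4: without replicate 4 the log2 fold change of HDSC01860CG00060 was 1.75 (edgeR adjusted p = 0.594), and without replicate 2 it was 2.07 (adjusted p = 0.0741). Without replicate 3 it was 2.86 (adjusted p = 0.00019). Without the replicate block the gene was not called (log2 fold change 2.79, edgeR adjusted p = 1.00). Nor was HDSC01860CG00060 called with library totals alone (2.15, adjusted p = 0.257), among genes with a mean count of 50 or more (2.26, adjusted p = 0.16) or by limma on log2(FPKM + 1), where it was 1.71 (adjusted p = 0.53).

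No other gene passed the adjusted threshold of 0.05, and the values of 3 more genes with the same sign in 4 of 4 pairs are given as descriptions. They rank 2, 5 and 12 by p among all genes, being the second of the higher genes and the first and second of the lower ones. HDSC03956CG00020 (645 bases, mean level 371 FPKM) was at 502, 341, 254 and 93.5 CPM in left replicates 1 to 4. On the right it was at 356, 161, 103 and 58.8 CPM. The left library was the higher in each number, by 1.41-fold, 2.11-fold, 2.44-fold and 1.58-fold, and number 1 was the highest and number 4 the lowest on both sides. Its log2 fold change was 0.89 (SE 0.18, edgeR adjusted p = 0.105).

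Of the genes lower on the left, HDSC19629CG00010 (897 bases, mean level 81.0 FPKM) was at 89.3, 34.7, 11.9 and 5.92 CPM in left replicates 1 to 4 and at 287, 45.6, 22.5 and 25.5 CPM in right replicates 1 to 4. Number 1 was the highest on both sides and the groups overlapped. The log2 fold change was -1.23 (SE 0.26, edgeR adjusted p = 0.105). HDSC33242CG00010 (354 bases, mean level 33.7 FPKM) had 18, 8, 4 and 13 counts on the left and 32, 51, 30 and 27 on the right. It averaged 5.43 CPM ± 2.54 on the left and 17.5 CPM ± 4.05 on the right (SD, n = 4 each). This gene alone among the 4 had groups that did not overlap, and it did not differ detectably between numbers (edgeR adjusted p = 0.852). Its log2 fold change was -1.68 (SE 0.41, adjusted p = 0.212).

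**Figure D3:**
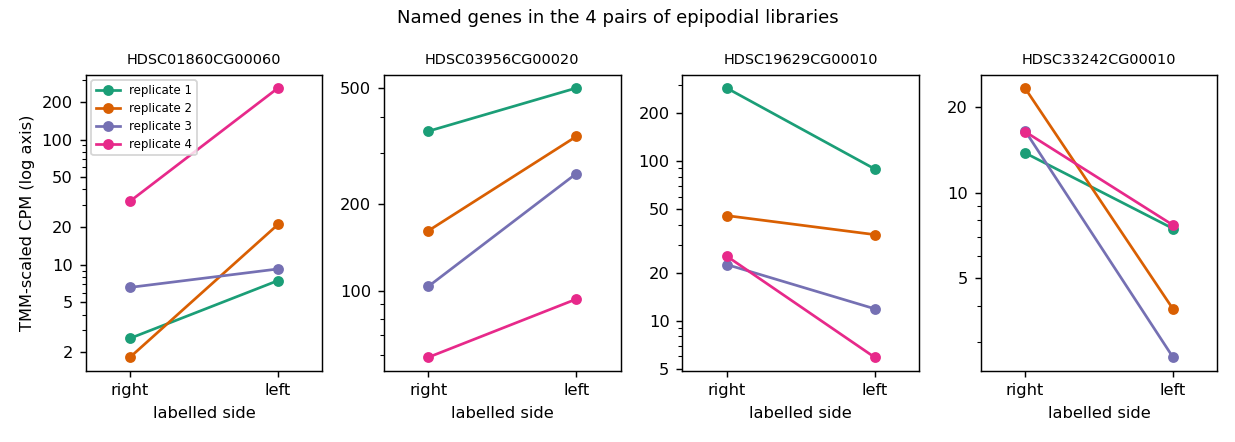
TMM-scaled CPM (log axis) of 4 genes in the right and the left library of each replicate number, joined by a line per number. HDSC01860CG00060 and HDSC03956CG00020 were higher on the left in each pair and HDSC19629CG00010 and HDSC33242CG00010 lower, by which they were chosen, and only the first of them was called.

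In all, 435 genes (7.58% of those tested) had an unadjusted p under 0.05, of which 248 were higher (4.32%) and 187 lower (3.26%) on the left. With library totals alone in place of TMM factors these were 70 higher and 440 lower, so the larger side depends on the scaling. The count was 285 without replicate 2, 364 without replicate 3 (221 higher and 143 lower) and 47 without the replicate block. A sign shared by 4 of 4 pairs was seen for 875 genes (15.2%), with 466 higher (8.12%) and 409 lower (7.13%) on the left. Of these, 183 higher (3.19%) and 124 lower (2.16%) genes also had an unadjusted p under 0.05. Most were small: the median log2 fold change was 0.46 for the 466 genes and -0.52 for the 409. The median absolute value over all tested genes was 0.23. An exact sign-flip test over 4 pairs cannot give a p below 0.125, so the sign alone cannot carry a call. With random, independent signs in each pair, 0.125 is also the share of genes expected to agree in 4 of 4. The 15.2% seen was little above that share, and the excess was not tested. Without number 3, the remaining 3 of 3 pairs shared the sign for 14.4% of genes on the higher and 11.8% on the lower side. Random signs agree more often over 3 pairs than over 4. Genes whose 4 left libraries lay wholly above or below the 4 right ones numbered 31 and 32, together 63 (1.10% of those tested). With number 3 left out, which makes such a separation of groups easier, they numbered 82 and 87 of 5921 genes.

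The consistent genes of larger size were few. Only 8 genes were at least 1.5-fold higher on the left in every pair (0.139%), and 12 were at least 1.5-fold lower (0.209%). These 20 were of low to moderate level, with a median log2 CPM of 4.54 for the higher and 3.27 for the lower genes, and their adjusted p ranged from 0.212 to 0.613. HDSC33242CG00010 was among the 12. Over the 3 pairs other than number 3, where fewer pairs must meet the bound, these were 31 and 37 genes. At least 2-fold in every pair was reached by 0 genes on the higher side and by 1 gene on the lower side (0.0174%). That gene had 9, 11, 3 and 0 counts on the left against 21, 44, 29 and 2 on the right, with an edgeR adjusted p of 0.257.

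**Figure D4:**
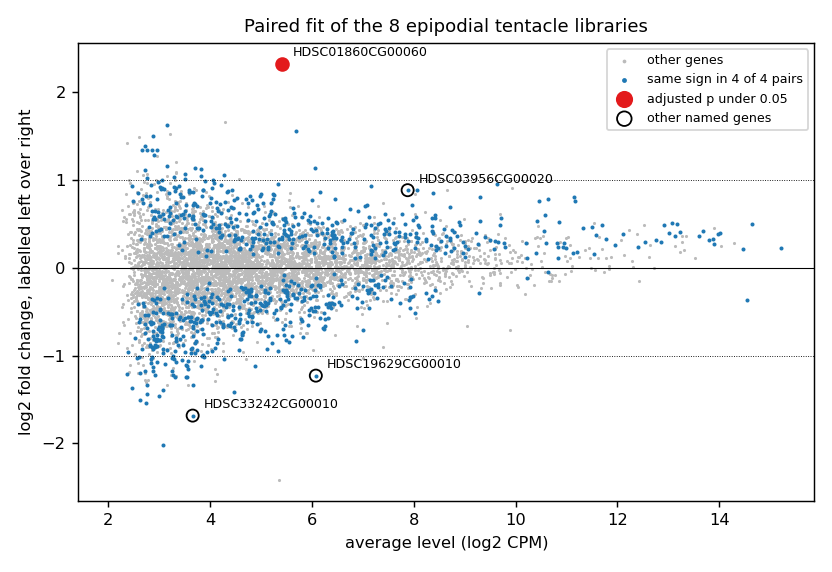
Log2 fold change of left over right in the paired fit against average level in log2 CPM for 5740 genes, with dotted lines at 2-fold. Genes with the same sign in 4 of 4 pairs are in blue. The single gene with an adjusted p under 0.05 stands at 2.33, and fold changes narrow as the level rises.

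The consistent genes of smallest p leaned to 1 direction and to high levels. Of the 20 genes with the smallest p among those with the same sign in 4 of 4 pairs, 16 were higher and 4 lower on the left. The 16 had log2 fold changes of 0.69 to 2.33, of which 14 were below 1. Their median log2 CPM was 8.01 and that of the 4 lower genes 5.81, against 4.51 over all genes. A choice by p favours genes of high level, whose intervals are narrower. Without number 3 the 20 genes so chosen were 17 higher and 3 lower. The 16 higher genes, chosen over all 4 pairs, had median left-right differences of 0.42, 1.12, 1.26 and 0.56 in numbers 1 to 4. These were thus largest in numbers 2 and 3, which had also entered the choice. For the 4 lower genes the medians were -1.27, -0.56, -1.19 and -0.77.

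Level and scaling moved with this lean. Across genes the left-right difference correlated with level by a Pearson's r of 0.01, 0.10, 0.20 and 0.06 in numbers 1 to 4. In each number the 50 most abundant genes held a larger share of the counts on the left, with 46.9% against 44.3%, 49.3% against 47.6%, 57.6% against 50.4% and 51.5% against 51.2%. The TMM factor was lower on the left in each number. Of the 1435 genes with the highest level 210 were higher and 85 lower on the left in 4 of 4 pairs. Of the 1435 with the lowest level these were 77 and 113. Without number 3, the same fractions of genes by level gave 312 higher and 146 lower at the highest level and 172 and 199 at the lowest, in 3 of 3 pairs. With library totals alone in place of TMM factors the median log2 fold change of all genes was -0.18, and 213 genes were higher and 845 lower in 4 of 4 pairs. With RLE factors these were 506 and 365. The larger side of the split thus turned over with the scaling, and the part of the dominant genes in it was not tested.

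The most abundant genes per coding length showed the same lean in small amounts. Of the 20 genes with the highest mean FPKM in the epipodial libraries, 19 had a fold change above 0. The median log2 fold change of the 20 was 0.34, and 11 of them were higher on the left in 4 of 4 pairs. Over all tested genes the median was 0.01 and 8.12% were higher in 4 of 4 pairs, with 210 of the 1435 of highest level. With library totals alone 17 of the 20 had a fold change above 0, 6 were higher in 4 of 4 pairs and the median was 0.15. Of all tested genes 3.71% were then higher in 4 of 4 pairs. The adjusted p of these 20 was 0.497 or more. Between numbers 14 of the 20 were called, against 48.7% of all tested genes and 60.2% of those with a mean count of 50 or more. HDSC39764CG00010, the most abundant, was at 82985, 67887, 76275 and 116056 FPKM on the left and at 64267, 49618, 62025 and 106597 FPKM on the right. The left library was higher in 4 of 4 pairs, by 1.11-fold to 1.68-fold after TMM scaling, and the groups overlapped. HDSC02593CG00020, the second, was at 48822, 67436, 79566 and 64173 FPKM on the left and at 44019, 52121, 52955 and 65951 FPKM on the right. In number 4 its sides were level and in number 3 the left was 2.06-fold higher after TMM scaling.

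The pattern of left-right differences was hardly shared between numbers. The left minus right differences of 2 numbers correlated across the 5740 genes by a Pearson's r of -0.01 to 0.16 over the 6 combinations of numbers. The highest value, 0.16, was between numbers 2 and 3, and the 3 combinations with number 1 gave -0.01 to 0.03. The 2 numbers of a combination share no library, but each number enters 3 of the combinations, and no p is attached since genes are not independent. Of 326 genes with a left-right difference over 4-fold in some pair, 310 had it in 1 pair only. In the 16 genes with such a difference in 2 or 3 pairs, 8 had it in opposite directions, and 0 genes had it in all 4.

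The sides of the epipodial tentacle were also set against those of the other organs, over the 7341 genes that passed the filter on all 24 libraries. The within-number rho averaged 0.933 ± 0.0165 for epipodial pairs, 0.718 ± 0.138 for eyestalk pairs and 0.645 ± 0.0588 for cephalic pairs (SD, n = 4 pairs each). The median absolute log2 difference averaged 0.402 ± 0.0854, 1.32 ± 0.621 and 1.57 ± 0.0908 in the same order. In exact two-sided permutation tests of 4 against 4 pairs, adjusted over 4 tests, the epipodial tentacle had a higher rho than the cephalic tentacle (p = 0.0286, adjusted p = 0.0381). Its absolute difference was smaller than in the cephalic tentacle and in the eyestalk (exact p = 0.0286, adjusted p = 0.0381 each), where 0.0286 is the smallest p that 4 against 4 allow. The rho did not pass against the eyestalk (exact p = 0.0571, adjusted p = 0.0571). These tests took the pairs of different organs as independent, although the organs share replicate numbers. A sign-flip test matched by number over 4 numbers cannot give a p below 0.125.

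Library quality moved with this difference. All 4 cephalic pairs and 3 of the 4 eyestalk pairs held a library with fewer than 6000 detected genes or with over 20% of its counts in 1 gene, and 0 of the 4 epipodial pairs did. The eyestalk pair without such a library, number 4, had a rho of 0.911 and a median absolute difference of 0.54, beside 0.910 and 0.52 in epipodial number 3. The organ and the quality of the libraries therefore cannot be told apart for the cephalic tentacle, and 1 eyestalk pair is too few for a test.

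**Figure D5:**
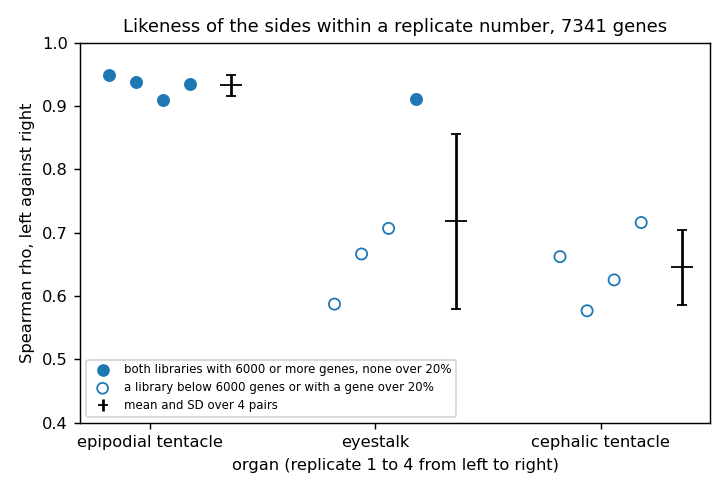
Spearman's rho between the left and the right library of each replicate number (vertical axis from 0.4 to 1) in 3 organs, with the mean and SD over 4 pairs. The epipodial pairs lie at 0.910 to 0.949 and the eyestalk pair with 2 well-covered libraries at 0.911, while the other head organ pairs lie at 0.577 to 0.716.

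The 4 genes chosen for their left-right pattern were also read in the other organs, where the side labels and titles do not conflict. Whether a gene had the same direction there turns with the epipodial side label. HDSC03956CG00020 was higher on the left in 4 of 4 eyestalk pairs and in 2 of 4 cephalic pairs, with 540 against 269 counts summed over the eyestalk sides and 866 against 1083 over the cephalic sides. HDSC01860CG00060 had most of its counts in epipodial libraries, with 511 on the left and 75 on the right. Of these, 436 and 53 came from number 4. The eyestalk sides had 19 and 14 and the cephalic sides 0 and 32. These sums are not scaled for depth. Scaled over the 24 libraries, its median was 6.68 CPM in epipodial, 0.92 in eyestalk and 0 in cephalic libraries, but a right cephalic library reached 30.2 CPM. HDSC19629CG00010 had 314 counts on the left and 849 on the right among epipodial libraries, 63 and 4 among eyestalk libraries and 45 and 31 among cephalic ones. HDSC33242CG00010 was lower on the left in 3 of 4 eyestalk pairs and in 2 of 4 cephalic pairs. Whether the left-right difference of these genes differs between organs was not tested here.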

How the data were processed

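Read counts per gene were deposited as raw whole numbers, and FPKM values beside them, for 19700 genes in each of the 24 libraries; fastp, HISAT2 and HTSeq are named in the submitters' processing notes. The build, the annotation, the strand setting and tool versions were not given in the sources used here, so overlapping genes and near-identical copies are uncertain. The deposited FPKM values equal count over length and library total, and the coding lengths were recovered from this relation (for the 17233 genes counted in any library, 100% were whole within 0.01 and 99.4% divisible by 3). FPKM ranked abundance and served 2 alternatives.

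For the 8 epipodial libraries the counts entered edgeR 4.0.16 (R 4.3.3): filterByExpr by side, TMM factors, replicate number and side as terms, robust quasi-likelihood tests on 3 residual degrees of freedom, 95% intervals, and Benjamini-Hochberg adjustment over all 5740 genes. DESeq2 1.42.0 and limma 3.58.1 were alternatives. The fit was also run on counts simulated from its own estimates, which cannot show how well it suits these libraries. Intervals cover counting and the modelled spread.

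The pairing was checked by correlating deviations from the side means: same-numbered libraries gave 0.80, 0.78, 0.69 and 0.80, and the true assignment had the highest mean of 24 (exact permutation p = 0.0417, the smallest these give). Sides of a number differed by a chi-square per gene of 4.69 to 19.8, so they are not 1 library deposited again.

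The members and lists were chosen with earlier results of these data known. Named genes are, among those with the same sign in 4 of 4 pairs, the 2 of smallest p in each direction, the 2 of smallest p between numbers and the 2 of highest mean FPKM. Lists for cAMP-PKA-CBP, TGF-β and left-right, sensory and cell type genes could not be matched to identifiers and gave no result.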

Additional observations from a re-analysis of the deposited data

Results flagged for a closer look

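Single libraries stood far from the other 3 of their side in 6 of 34 groups of 4 values looked at. The rule flags about 1 in 20 groups of independent, normally distributed values. The CPM values were not log-transformed, and left and right groups share numbers, so the 6 cannot be read as an excess. HDSC01860CG00060 was at 258 CPM in left replicate 4 and at 32.1 CPM in right replicate 4, each far above the other replicates of its side. HDSC19629CG00010 was at 287 CPM in right replicate 1. Both genes also differed between numbers in edgeR's test (adjusted p = 1.21e-07 and 1.21e-08). HDSC00814CG00050 was at 1959 CPM in left replicate 4 and at 2240 CPM in right replicate 4, and it had been chosen for such a difference between numbers. The total count of left replicate 4, 1782220, was low beside the other 3 left libraries.

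The likeness of the sides differed between organs in 3 of 4 tests. The within-number median absolute log2 difference in the epipodial tentacle was below that in the eyestalk by a difference of -0.92 and below that in the cephalic tentacle by a difference of -1.17. The within-number rho was above that in the cephalic tentacle by 0.288. Each had an adjusted p of 0.0381 in an exact permutation test, and the libraries of low detection among the head organs move with it as described.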

How the results depend on the processing

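The number of genes called between sides depended on the processing. It was 1 in the paired fit and also with RLE factors and with limma on voom weights. It was 0 with no replicate block, with library totals alone, with a mean count of 50 or more, without robust estimation, in the fit of all 24 libraries, and with limma on log2(FPKM + 1) or log2(FPKM + 0.1). It was 18 with DESeq2, which gave no adjusted p for 4006 genes, and 29 with no filter on low counts. Leaving out 1 number gave 1 to 11 calls, the 11 without replicate 1. The direction of the 4 genes named for the side difference was kept in every alternative that tested them. HDSC01860CG00060 was called in 5 of 14 alternatives with an adjusted p, from 3.54e-09 to 1.00, and DESeq2 gave it none. HDSC03956CG00020 and HDSC19629CG00010 were each called in 3 of 15 and HDSC33242CG00010 in 1 of 13.

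The median absolute log2 fold change was 0.50 with no filter on low counts and 0.18 to 0.28 in the other alternatives. The share of genes bounded within 2-fold was 23.1% with no replicate block, 23.6% with no filter, 89.8% with a mean count of 50 or more and 0.0817% in the fit of all 24 libraries, and 46.0% to 54.6% leaving out 1 number. The share called between numbers, tried in alternatives chosen after seeing the data, was 24.02% with no filter and 30.8% to 44.7% leaving out 1 number. With library totals alone 3.71% of genes were higher and 14.7% lower on the left in 4 of 4 pairs. Leaving out 1 number, 12.8% to 16.3% were higher and 11.8% to 15.5% lower in 3 of 3. The sum of squares between numbers was 90.6% with a mean count of 50 or more and 79.0% to 84.5% leaving out 1 number, and that between sides 2.96% and 5.48% to 7.81%. The mean correlation between the differences of 2 numbers was 0.05, and 0.02 to 0.10 over the alternatives.

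The rho of the epipodial tentacle minus that of the eyestalk was 0.215. It passed with libraries thinned to 473072 counts (0.198) and with a mean count of 50 or more (0.222). The adjusted p of the exact permutation test was 0.0286 in both. The thinned result, from 1 random draw, was close to a tie: the lowest epipodial rho was 0.8835 and the highest eyestalk rho 0.8827. With a mean count of 50 or more these were 0.925 and 0.904. Leaving out 1 number the difference in rho to the eyestalk was 0.166 to 0.278, and that to the cephalic tentacle was 0.263 to 0.310. Those in the median absolute difference were -1.17 to -0.65 and -1.20 to -1.13. All of these fell short of the threshold, which 3 against 3 pairs cannot reach, since their exact p cannot be below 0.1. For the rho against the eyestalk the exact permutation p was 0.2 without replicate 1 and also without replicate 2, which is above that floor. Leaving out pairs with a doubted library left 1 eyestalk and 0 cephalic pairs, so no test was run. The bounds on the left-right fold were widest for genes of low level, and depth as their limit was not tested.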

Other observations

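DESeq2 and the edgeR fit without a filter, both with scaling factors from the bulk of genes, had more calls higher than lower on the left. With library totals alone edgeR called 0 genes, and the genes at an unadjusted p under 0.05 were 70 higher and 440 lower. DESeq2 with the replicate block called 18 genes, 16 higher and 2 lower on the left, of which 17 had the same sign in 4 of 4 pairs. When low counts were not filtered, edgeR called 29 genes, 18 higher and 11 lower, and 15 were called in both. Of the 29 genes, 5 were not among the 5740 tested in the filtered fit.

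Differences over 4-fold in single pairs were mostly of low-level genes, and in numbers 1, 3 and 4 more of them were lower than higher on the left. Number 3 had 44 such genes higher and 144 lower on the left, number 4 had 37 and 62, number 2 had 18 and 18, and number 1 had 7 and 14. Their median log2 CPM was 2.86 to 3.70, against 4.51 over all tested genes. Coding length hardly moved with the left-right difference, with a Spearman's rho across genes of -0.02, -0.01, -0.08 and -0.02 in numbers 1 to 4.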
